A study of Homo sapiens with 2 samples.

Results

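Distal peaks of chromosome 16 were taken from 3 deposited lists of FAIRE-seq peaks of HepG2 cells. They were chosen by their listed position and class, as every peak on chromosome 16 that the deposited annotation placed in an intron or between genes. This gave 4784 distal peaks of 56159 peaks in all, and of 5559 peaks of any class on this chromosome. Of the 4784, 928 were in the list common to both libraries, 1790 in the control-specific list and 2066 in the list specific to the NR2E3-depleted library (depleted-specific). Because a region entered a list only by being called as a peak, peak numbers describe the calls and are given without a test.

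HepG2 is an established human liver cancer cell line. The control cells received lentiviral particles that express a scrambled small hairpin RNA, and the NR2E3-depleted cells received particles with a small hairpin RNA against NR2E3, an orphan nuclear receptor. Both groups were the same cell line with the same kind of vector, each group had 1 library, and the labels say nothing of clones. The study used 2 hairpins against NR2E3, and these libraries hold 1 of them. No difference between the libraries therefore has a replicate check, and the 95% intervals below reflect counting error alone, as if each peak were independent of its neighbours.

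FAIRE enriches DNA that stays free of protein after formaldehyde crosslinking, which is mostly nucleosome-poor DNA. Promoters of active genes are the most constant of these sites, whereas sites in introns and between genes include enhancers and insulators and differ more between cell types. Chromosome 16 has a short (p) arm rich in duplicated blocks, a gene-dense tip, and large blocks of satellite DNA next to the centromere on the long (q) arm. Liver-specific enhancers are commonly bound by forkhead, C/EBP, HNF1 and HNF4 factors.

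The members with the highest scores are shown first, since they separate into 2 kinds of sequence. A score is the authors' scaled tag number of a peak, and windows are the 201 bases around a peak's centre in hg38, plus strand, 5′ to 3′. The first 3 windows are the highest-scoring common peak of each arm and the highest-scoring depleted-specific peak of the long arm, all near the centromere. Their capitals mark the pentamer GGAAT or, on the other strand, ATTCC, the unit of the classical human satellites.
ANKRD26P1 common peak, chr16:46390578-46390778: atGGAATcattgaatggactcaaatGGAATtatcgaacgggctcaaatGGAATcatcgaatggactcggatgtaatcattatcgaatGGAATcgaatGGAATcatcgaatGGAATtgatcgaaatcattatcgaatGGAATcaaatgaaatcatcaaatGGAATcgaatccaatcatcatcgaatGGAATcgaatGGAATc
CCNYL3 common peak, chr16:34588161-34588361: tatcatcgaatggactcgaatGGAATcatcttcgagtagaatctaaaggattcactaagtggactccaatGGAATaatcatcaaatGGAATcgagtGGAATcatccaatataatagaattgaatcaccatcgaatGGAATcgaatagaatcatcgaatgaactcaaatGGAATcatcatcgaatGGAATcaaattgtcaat
ANKRD26P1 depleted-specific peak, chr16:46401338-46401538: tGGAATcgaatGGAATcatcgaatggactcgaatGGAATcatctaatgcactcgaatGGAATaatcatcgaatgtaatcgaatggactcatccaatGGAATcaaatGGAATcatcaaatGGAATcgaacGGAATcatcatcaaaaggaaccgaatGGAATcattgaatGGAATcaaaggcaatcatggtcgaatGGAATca
The other 2 windows are the highest-scoring common and control-specific distal peaks between 7 and 24 Mb of the short arm, where most members lay. Capitals here mark matches to the motifs searched below, and the first of the windows has none.
TEKT5 common peak, intron 5 of 6, chr16:10647830-10648030: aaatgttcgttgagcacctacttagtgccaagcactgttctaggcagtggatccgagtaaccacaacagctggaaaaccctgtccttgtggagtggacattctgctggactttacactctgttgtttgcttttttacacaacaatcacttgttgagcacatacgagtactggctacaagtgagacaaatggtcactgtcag
CDR2 control-specific peak, intron 2 of 4, chr16:22353677-22353877: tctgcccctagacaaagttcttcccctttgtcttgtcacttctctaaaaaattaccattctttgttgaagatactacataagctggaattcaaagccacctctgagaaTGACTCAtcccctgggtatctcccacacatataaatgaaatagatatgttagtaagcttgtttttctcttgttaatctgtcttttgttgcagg

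The first 3 windows came from peaks scored 2376.4, 843 and 83.6 and held 10, 7 and 11 pentamers. They are named after their nearest listed gene, and both ANKRD26P1 and CCNYL3 are pseudogenes far from the peaks, with listed distances to the TSS (transcription start site) of 178419 and -206781 bp for the first 2, where a minus sign means upstream. The other windows came from peaks scored 19.9 (TEKT5, a tektin of sperm flagella) and 10.2 (CDR2, an onconeural antigen). In CDR2 the capitals are an AP-1 motif. All 33 members with a score of at least 20 lay between 34 and 47 Mb, 16 on the short arm and 17 on the long arm. Of these 33, 31 were common, 2 depleted-specific and 0 control-specific. Each of the 33 held from 6 to 16 pentamers, where the median over all members was 0, and 14 held at least 10. Across the chromosome, 45 of 4784 members held that many (0.941%, 0.687 to 1.26), close to 0.868% of the distal peaks of the other chromosomes and above 0.205% of all windows of this length on chromosome 16.

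The first question was where the distal peaks lay along the chromosome. The longest undetermined run of the hg38 sequence, chr16:38280683-46380682, was used to divide the arms. No separate position of the centromere was used. Outside it and smaller gaps 81.8 Mb were determined, so that the members had a density of 58.5 per Mb. They were far from even. In 84 bins of 1 Mb with more than 100 kb of sequence the median was 39 members, 3 bins had none and 16 had fewer than 10. The 10 densest bins, all on the short arm, held 1981 members or 41.4% (40.01 to 42.8).

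**Figure D1:**
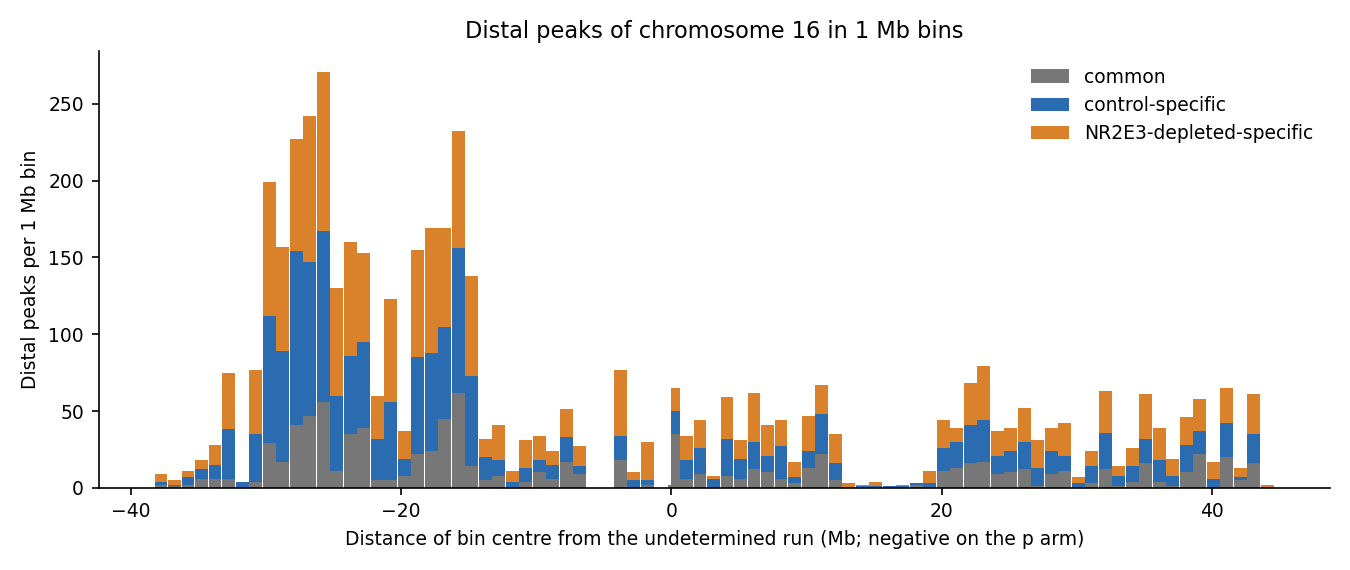
Number of distal peaks in each 1 Mb bin of chromosome 16, stacked by list, against the distance of the bin centre from the nearer edge of the undetermined run in Mb, with the run itself collapsed to 0. Bins 31 to 14 Mb out on the p arm reached 271 peaks, while bins 13 to 20 Mb out on the q arm held between 1 and 11.

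The densest bin, from 12 to 13 Mb, held 271 members, of which 56 were common, 111 control-specific and 104 depleted-specific. It holds much of SNX29 (a sorting nexin) and the neighbouring CPPED1 (a phosphatase). The next were 11 to 12 Mb with 242 members, 22 to 23 Mb with 232, 10 to 11 Mb with 227 and 8 to 9 Mb with 199. These bins all fell in a stretch from 7 to 24 Mb, whose limits were chosen after the bin counts were seen. The stretch held 2699 members (56.4%) on 20.7% of the determined sequence. Its density was 159 per Mb against 32.1 per Mb over the rest of the chromosome, 4.95 times as many.

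Per Mb, promoter-class peaks and gene starts had no surplus of that size in this stretch. Promoter-class peaks had 5.72 per Mb inside the stretch and 5.60 per Mb outside it. Protein-coding gene starts of GENCODE 44 were fewer inside, 7.61 against 11.2 per Mb. Per coding gene start there were thus more promoter-class peaks inside, 0.752 against 0.499. At the gene-dense tip of the short arm, from 0 to 5 Mb, the order was the other way round. There, 38.5 coding gene starts per Mb came with 12.02 promoter-class peaks per Mb and with only 14.2 distal peaks per Mb. The bin with most coding gene starts on the chromosome, 48, held 9 members.

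**Figure D2:**
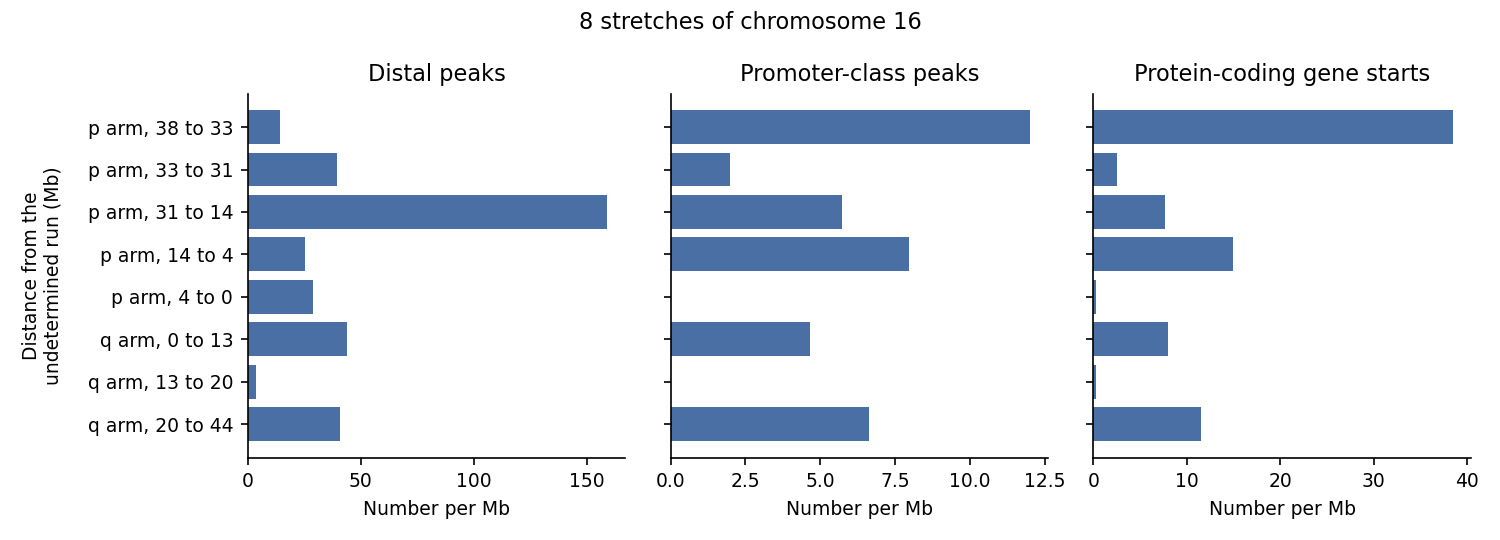
Distal peaks, promoter-class peaks and protein-coding gene starts per Mb of determined sequence in 8 stretches of chromosome 16, named by arm and by distance from the undetermined run in Mb. The stretch 31 to 14 Mb out on the p arm stood at 159 distal peaks per Mb, but at 5.72 promoter-class peaks per Mb.

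Over the 84 bins, the Spearman correlation of member number with coding gene starts was 0.314, with promoter-class peaks 0.409 and with GC content 0.276. Promoter-class peaks and coding gene starts had a correlation of 0.902 over the same bins. These are descriptions over neighbouring bins of the same 2 libraries.

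The edges of the dense stretch differed. At its inner edge the count fell from 62 members between 23.5 and 24 Mb to 7 between 24 and 24.5 Mb. At its outer edge the peaks ran out inside RBFOX1, a splicing regulator of neurons and muscle that spans 2474 kb (chr16:5239802-7713340, plus strand). Here 60 members lay between 5 and 5.5 Mb, 15 between 5.5 and 6 Mb, 0 between 6 and 6.5 Mb, 4 between 6.5 and 7 Mb and 44 between 7 and 7.5 Mb. The empty interval inside the gene ran for 1101 kb and held no peak of any other class.

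Other stretches were nearly empty. Between 59 and 66 Mb of the long arm 26 members lay on 7 Mb, 3.71 per Mb, with 2 coding gene starts and 0 promoter-class peaks. The genes there are CDH8 and CDH11, which encode cadherins of neurons and of mesenchymal cells. The longest interval without any member outside the undetermined run was 2187 kb, from 31877669 to 34065160, over ZNF267 and the TP53TG3 copies. Another of 1930 kb, between 36336995 and 38267102, ended just before the undetermined run and held no coding gene start. Whether reads could be placed uniquely in both intervals was not tested. Between 46 and 59 Mb and from 66 Mb to the end, the long arm held 43.9 and 40.7 members per Mb.

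The second question was how the arms differed. The short arm had 3219 members on 37.96 Mb of determined sequence, 84.8 per Mb. The long arm had 1565 on 43.8 Mb, 35.7 per Mb. The short arm was thus 2.38 times as dense (2.24 to 2.53). The ratio of short to long arm was 1.82 (1.59 to 2.09) for common, 2.70 (2.44 to 2.996) for control-specific and 2.41 (2.20 to 2.65) for depleted-specific members.

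The arm difference rested on the stretch from 7 to 24 Mb. Without it the short arm had 24.8 members per Mb, and the direction turned. The density of the long arm relative to the short arm, 0.421 (0.396 to 0.447) over the whole chromosome, became 1.44 (1.30 to 1.60). The median bin held 46 members on the short arm and 39 on the long arm.

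The arms also differed in composition. Common peaks were 568 of the 3219 short-arm members (17.6%) and 360 of the 1565 long-arm members, where their share was higher by 5.36 points (2.88 to 7.89). Without 7 to 24 Mb the difference was 3.003 points (-1.23 to 6.997), an interval that includes 0. Intergenic peaks were 46.3% of short-arm and 40.5% of long-arm members, and the long-arm minus short-arm difference was -5.75 points (-8.75 to -2.72). Without 7 to 24 Mb intergenic peaks were 332 of 520 short-arm members (63.8%), and the difference was -23.3 points (-28.1 to -18.4). With the members from 34 Mb to the undetermined run left out too, it was -12.9 points (-18.4 to -7.26). Members lay a median of 34893 bp from the nearest listed TSS on the short arm and 23686 bp on the long arm. More than 100 kb away were 27.8% (26.2 to 29.4) of short-arm and 16.9% (15.05 to 18.8) of long-arm members. Of all members, 4382 lay at least 3000 bp from the listed TSS.

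The third question was how the lists mixed. Depleted-specific members outnumbered control-specific members 1.15 times (1.08 to 1.23), a depleted share of 53.6% (52.0 to 55.2) of specific members. The 2 lists were not cut at the same number of tags. The weakest control-specific member had 11 tags and the weakest depleted-specific member 9, and the medians were 14 and 12 tags. The ratio turned when an equal number was asked of both. With at least 15 tags, 270 depleted-specific and 772 control-specific members remained, a ratio of 0.350 (0.303 to 0.402). With a score of at least 6 in both lists the ratio was 1.88 (1.72 to 2.06), from 1452 depleted-specific and again 772 control-specific members. A tag was worth a score of 0.407 in the control-specific and 0.507 in the depleted-specific list. Between these 2 cuts only the depleted-specific number changed, and 15 tags was the stricter cut for that list. Which library had more distal sites on chromosome 16 therefore depended on the scale of the threshold.

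The comparison with other chromosomes kept its direction at each of these thresholds. The depleted share was 60.5% (59.9 to 61.0) over the distal peaks of the other chromosomes, and chromosome 16 minus the others was -6.91 points (-8.58 to -5.23). With at least 15 tags the shares were 25.9% (23.3 to 28.7) on chromosome 16 and 38.6% (37.6 to 39.6) elsewhere. With a score of at least 6 they were 65.3% (63.3 to 67.3) and 71.7% (71.1 to 72.3). Chromosome 16 had the third highest density of distal peaks, after chromosome 20 with 129 per Mb and chromosome 14 with 93.8 per Mb. Its ratio was the third lowest of 23 chromosomes, after the same chromosomes. The sources used here give no correction for copy number, and its part in the densities along and between chromosomes was not tested.

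**Figure D3:**
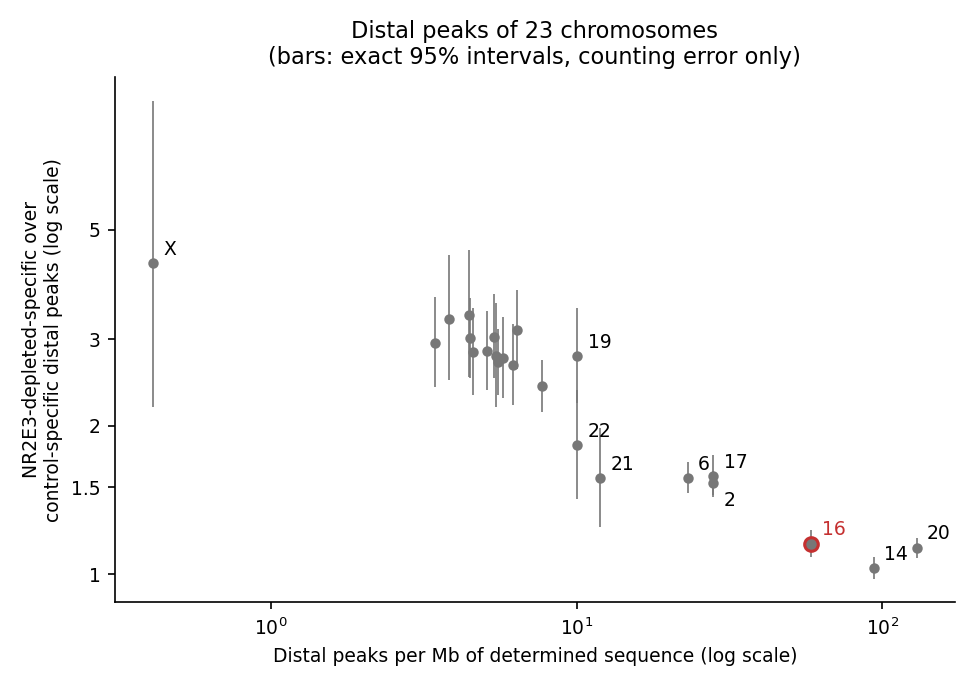
Ratio of depleted-specific to control-specific distal peaks against distal peaks per Mb of determined sequence for 23 chromosomes, both on log scales, with exact 95% intervals of the ratio for counting error and chromosome 16 in red. Chromosome 16 sat at 58.5 peaks per Mb and a ratio of 1.15, near chromosomes 14 and 20 and below the 17 sparser chromosomes outside 2, 6, 14, 16, 17 and 20, which together had 5.33 per Mb and a ratio of 2.70.

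Chromosome 17, the next in density with 27.99 distal peaks per Mb, and chromosome 20, the densest, were compared directly. Chromosome 17 had a depleted share of 61.2%, and chromosome 16 minus chromosome 17 was -7.66 points (-10.5 to -4.83). Chromosome 20 had 53.1%, and chromosome 16 minus chromosome 20 was 0.492 points (-1.49 to 2.47). Common peaks were 19.4% (18.3 to 20.5) of the members on chromosome 16 and 22.4% of distal peaks elsewhere, and the difference was -3.00 points (-4.19 to -1.79).

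Along the chromosome the lists rose and fell together. Over the 84 bins the Spearman correlation was 0.911 between control-specific and depleted-specific members, 0.839 between control-specific and common and 0.815 between depleted-specific and common members. Of 80 bins with a specific member, 55 (68.8%) had more depleted-specific members, 17 had more control-specific members and 8 were tied. The same direction held in 79.6% of such bins over all chromosomes. The share was lower than that background here, with 24 of 35 bins on the short arm and 31 of 45 on the long arm.

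Inside the dense stretch the 2 specific lists were nearly equal in number. It held 1140 depleted-specific and 1095 control-specific members, a ratio of 1.04 (0.957 to 1.13). The rest of the short arm had 257 and 159, a ratio of 1.62 (1.32 to 1.98). The depleted share was 51.0% inside the stretch and 61.8% in the rest of the arm, a difference of -10.8 points (-15.9 to -5.48). The long arm had a depleted share of 55.5%, 2.82 points above the short arm (-0.619 to 6.24). Without the stretch this became -6.26 points (-11.8 to -0.636), with the long arm lower. Both values moved with the members from 34 Mb to the undetermined run. Without these, the rest of the short arm had 184 depleted-specific and 135 control-specific members (57.7%), and the stretch differed from it by -6.67 points (-12.5 to -0.668). The long arm minus the short arm without both stretches was -2.16 points (-8.35 to 4.14).

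**Figure D4:**
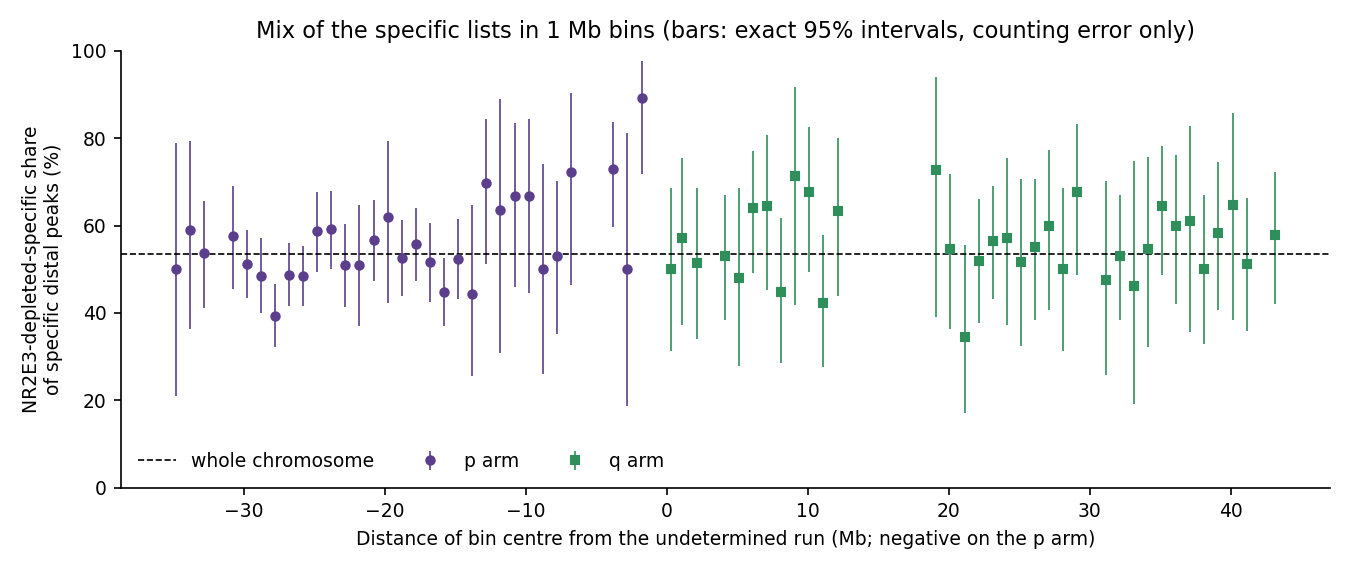
Depleted-specific share of specific distal peaks in percent for the 66 bins with at least 10 specific peaks, against distance from the undetermined run in Mb, with exact 95% intervals for counting error and the chromosome's share of 53.6% dashed. The intervals of 2 bins near the run on the p arm, at 72.9% and 89.3%, lie above the line, and those of 2 bins in the dense stretch, at 39.2% and 44.7%, lie below it.

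Only 4 of the 66 bins with at least 10 specific members had an interval that left out the chromosome's share. From 34 to 35 Mb, 43 depleted-specific stood against 16 control-specific members, 72.9% (59.7 to 83.6). From 36 to 37 Mb, 25 stood against 3, 89.3% (71.8 to 97.7), all of them between 36 and 36.5 Mb. Both bins lie within a few Mb of the undetermined run, with 1 and 0 coding gene starts. Below the chromosome's share were 10 to 11 Mb, with 73 depleted-specific and 113 control-specific members or 39.2% (32.2 to 46.7), and 22 to 23 Mb, with 76 and 94 or 44.7% (37.1 to 52.5). From 34 Mb to the undetermined run as a whole, 73 depleted-specific and 24 control-specific members gave a ratio of 3.04 (1.90 to 5.05).

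Some specific peaks of one library lay close to a specific peak of the other. Of control-specific members, 13.9% (12.3 to 15.5) had a depleted-specific peak within 1000 bp, and of depleted-specific members 11.7% (10.3 to 13.1) had a control-specific peak that near. Another peak of the same list lay within 1000 bp for 10.1% (8.75 to 11.6) of control-specific and 9.10% (7.89 to 10.4) of depleted-specific members. For specific peaks of the other library, the control-specific and depleted-specific shares were 16.3% and 14.3% on the short arm. On the long arm they were 8.21% and 6.13%. Whether a member was common depended on its score. Of the control library's members under a score of 5, 17.4% (11.8 to 24.3) were common, of those from 7 to 8, 57.0% (49.96 to 63.8), and of those at 10 or more, 98.6% (94.9 to 99.8). On the other chromosomes these shares were 24.1%, 63.4% and 95.4%. Median scores were 6.91 for common, 5.69 for control-specific and 6.08 for depleted-specific members, so most specific members were weak calls. A specific peak has a score in its own library only, and common peaks carry the control library's score.

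The fourth question was which genes the members lay nearest to. The deposited annotation gave 642 nearest genes, of which 189 had 1 member and 53 had at least 20. These 53 took 2282 members (47.7%), and 2 members had no listed gene. The 10 genes with most members held 855 (17.9%), and all 10 lay on the short arm. A promoter-class peak in any list was found for 3 of these 10, and for 282 of the 642 nearest genes (43.9%, 40.04 to 47.9). Nearest means the listed gene with the closest TSS, and no RNA was measured in these libraries, so the lists say nothing of the genes' activity.

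MIR4718, a microRNA gene inside CPPED1, had most, with 129 members (26 common, 54 control-specific and 49 depleted-specific). They ran from 12349283 to 12760121, over the end of SNX29 and over CPPED1. SNX29 followed with 112 (25, 41 and 46 in the same order), all but 1 intronic. Counted by span instead (chr16:11976734-12574287, plus strand), SNX29 held 172 members, the most of any gene on the chromosome, at 288 per Mb. ERCC4, the XPF endonuclease of nucleotide excision repair, had 74 (5, 29 and 40), of which 67 were intergenic.

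Several of the 10 are large genes best known from the nervous system. RBFOX1 had 80 members as nearest gene (4, 35 and 41) and 104 by span. GRIN2A, a subunit of the NMDA glutamate receptor, had 73 (9, 33 and 31) and SHISA9, an auxiliary protein of AMPA receptors, had 71 (9, 30 and 32). None of these had a promoter-class peak. TMEM114, a claudin-like membrane protein gene, had 99 (9, 42 and 48), and XYLT1, which starts glycosaminoglycan chains on proteins, had 68 (3, 30 and 35). LOC102723692, a non-coding gene within XYLT1, had 67 (3, 31 and 33). OTOAP1, a pseudogene of otoancorin, stood apart with 82 members of which 37 were common, more than either specific list gave it (24 and 21).

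**Figure D5:**
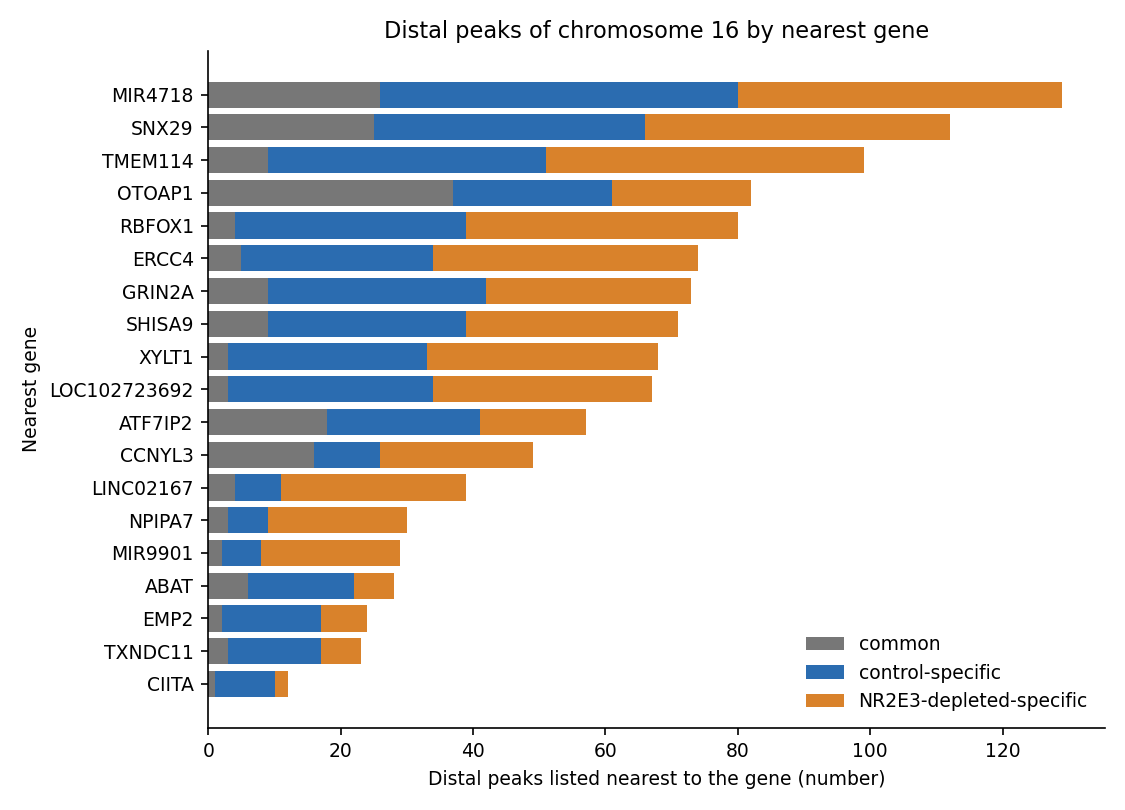
Number of distal peaks listed nearest to each of 19 genes, stacked by list: the 10 genes with most members, and the 5 with the largest excess of depleted-specific and of control-specific members (ERCC4 has both most members and a depleted excess, and genes tied for the last place of an excess are left out). MIR4718 had 129 members and SNX29 112, and in LINC02167, MIR9901 and NPIPA7 depleted-specific peaks made up most of the bar.

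By members per Mb of span, RMI2 led the 204 genes of at least 50 kb with 386 per Mb (51 members). RMI2 is a subunit of the BLM helicase complex, and it was followed by LITAF with 361 and TXNDC11 with 345 per Mb. PARN, a poly(A) ribonuclease, had 58 members in its span and CLEC16A, a regulator of autophagy, 57. On the long arm WWOX, an oxidoreductase gene over a common fragile site, had 65 in its span, 58.4 per Mb, and ZFHX3, a homeobox gene, had 54, 48.7 per Mb. Both are large, and WWOX was near the chromosome's mean of 58.5 per Mb while ZFHX3 was below it. Both were above the 40.7 per Mb of the long arm from 66 Mb to the end, where they lie.

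Of 583 nearest genes with a specific member, 295 (50.6%) had more depleted-specific members, 211 had more control-specific members and 77 were tied. Over all chromosomes 64.0% of such genes had more depleted-specific peaks, so the share here was lower. Of the 53 genes with at least 20 members, the interval of the depleted share lay above the chromosome's share for 3 and below it for 1. Some of 53 such intervals can also leave it out by counting error alone.

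The largest depleted excess was at LINC02167, a long non-coding gene beside the centromere, with 28 depleted-specific and 7 control-specific members, 80.0% (63.1 to 91.6). Its members ran from 35644951 to 38279621. This range takes in the 25 against 3 between 36 and 36.5 Mb given above, so the 2 results are not separate. MIR9901 had 21 against 6, 77.8% (57.7 to 91.4), within 34065160 to 34256712. NPIPA7, of a family of nuclear pore interacting proteins copied along this arm, had the same numbers. Its members lay from 17917509 to 18071129, whereas GENCODE places the gene at chr16:16379140-16393972, so which family copy they lie near is uncertain. CCNYL3 had 23 against 10, 69.7% (51.3 to 84.4), and ERCC4 40 against 29, 58.0% (45.5 to 69.8). PARN, with 20 against 9 (69.0%, 49.2 to 84.7), had the same excess of 11 as ERCC4. The last 3 intervals hold the chromosome's share.

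The largest control excess was at ABAT, the mitochondrial transaminase that breaks down GABA and is abundant in liver. It had 16 control-specific and 6 depleted-specific members, a depleted share of 27.3% (10.7 to 50.2). ATF7IP2, a partner of histone methylation enzymes, had 23 against 16 (25.6 to 57.9%). EMP2, a tetraspan membrane protein gene, had 15 against 7 (13.9 to 54.9%) and TXNDC11, a thioredoxin domain protein gene, 14 against 6. The intervals of ATF7IP2 and EMP2 hold the chromosome's share. CIITA, the activator of MHC class II genes, had 9 against 2, and its interval of 2.28 to 51.8% left out the chromosome's share. These 5 lie between 8 and 12 Mb. NDUFAB1, which encodes the mitochondrial acyl carrier protein, had 8 against 1 (0.281 to 48.2%), the same excess of 7 as ATF7IP2 and CIITA, with members from 23577576 to 23617754. All 6 lie inside the dense stretch.

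The gene groups were listed with earlier results in view. Of 18 liver genes, 16 had a member, 138 in all (30 common, 56 control-specific and 52 depleted-specific), and 9 had a promoter-class peak. They include the ACSM genes for medium-chain acyl-CoA synthesis. As nearest gene, ACSM1 had 25 members (4, 11 and 10) and ACSM3 had 11 (0, 4 and 7). By span ACSM3 held 47 (6, 18 and 23), but ACSM1 lies within that span, so these counts overlap. TAT, the tyrosine aminotransferase of liver, had 7, of which 4 were common, and HPR, a haptoglobin-related gene, had 2, both common. HP and LCAT had none. Depleted-specific members outnumbered control-specific ones at 6 of the liver genes, and the reverse held at 6. Over all 583 nearest genes with a specific member these numbers were 295 and 211.

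A group of 9 large genes, most of them best known from the nervous system, was made of RBFOX1, GRIN2A, WWOX, SHISA9, XYLT1, ZNF423, CNTNAP4, CDH8 and CDH13. It held 372 members (38, 160 and 174), and 1 of the genes, WWOX, had a promoter-class peak. Depleted-specific peaks were 52.1% (46.6 to 57.6) of the specific members of this group and 48.1% (38.4 to 58.0) of those of the liver genes, and both intervals hold the chromosome's 53.6%. Of 8 cadherin genes, 7 had a member, 40 in all (7, 15 and 18), and none had a promoter-class peak. CDH1, E-cadherin, had 16 (3, 6 and 7), and CDH13, a cadherin without a transmembrane part, had 18 in its span (0, 6 and 12).

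The metallothionein genes, which bind zinc and copper and are strongly inducible in liver, had few. Members lay nearest to 5 of 11, 9 in all (2 common, 1 control-specific and 6 depleted-specific), with 3 each at MT1X and MT2A. Their depleted share of 85.7% has an interval of 42.1 to 99.6%. The Iroquois genes and FTO had 19 (1, 6 and 12), of which 13 were nearest to FTO, an RNA demethylase whose introns hold long-range enhancers of IRX3 and IRX5. Their depleted share was 66.7% (40.99 to 86.7), and this interval and that of the metallothioneins hold the chromosome's 53.6%. By span FTO had 37 (2, 13 and 22). FOXF1, FOXC2 and FOXL1, a forkhead gene cluster of mesoderm, had 6 (0, 3 and 3).

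Of 10 transcription and chromatin regulators, 7 had a member, 109 in all (20, 44 and 45). TOX3, an HMG-box gene, had 31 (7, 7 and 17), SALL1, a zinc finger gene of kidney development, 19 (3, 9 and 7), and MAF, a bZIP factor, 18 (0, 11 and 7). CREBBP and CTCF, which are active in most cells, had 1 each, both common.

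The last question was what sequence the members shared. GC content had a median of 44.8% in the windows of members and 43.8% in those of other distal peaks, near the 44.6% of the determined chromosome and far below the 64.7% of its promoter-class peaks. Common members had 46.3%. Windows whose 5 sampled stretches of 32 bases all recur elsewhere in hg38 were 23 of 4784 (0.481%, 0.305 to 0.721).

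Motifs were searched on both strands, overlaps between motifs were allowed, and a match is a description and not a bound site. The forkhead motif TGTTTAC was in 3.93% (3.40 to 4.52) of members, 4.78% of other distal peaks and 2.48% of all windows of chromosome 16. The HNF4 motif CAAAGTCC was in 1.80% (1.44 to 2.22), 2.35% and 0.799%, and the HNF1 motif GTTAATNAT in 0.711% (0.493 to 0.992), 1.16% and 0.634%, in the same order. For these 3 motifs of liver factors the members lay below the other distal peaks. The differences were -0.848 points (-1.42 to -0.224) for forkhead, -0.555 (-0.943 to -0.113) for HNF4 and -0.452 (-0.696 to -0.154) for HNF1. The arms differed in this. The short arm had 3.54%, 1.49% and 0.373% in the same order and differed from the other distal peaks by -1.24 (-1.88 to -0.51), -0.862 (-1.28 to -0.359) and -0.790 points (-1.0002 to -0.495). The long arm had 4.73%, 2.43% and 1.41%, and its differences of -0.0495 (-1.07 to 1.14), 0.0754 (-0.645 to 0.977) and 0.243 points (-0.291 to 0.965) had intervals that include 0.

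The other 6 motifs had intervals of that difference that include 0. The AP-1 motif TGANTCA was in 9.13% of members and the C/EBP motif TTGCNNAA in 12.2%, against 6.09% and 9.57% of all windows. The hexamer AGGTCA, bound by many nuclear receptors, was in 16.9% and AAGTCA, the hexamer described for NR2E3, in 14.7%, against 15.2% and 11.6% of all windows. The Sp1 motif GGGCGG was in 4.06% and the NFY motif CCAAT in 26.0%, against 4.58% and 24.4%. GGGCGG thus was no more frequent in members than in the chromosome at large, and it was in 53.3% of the promoter-class peaks of the chromosome.

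Between the specific lists motif shares were close. For AAGTCA, 14.3% of depleted-specific and 15.7% of control-specific members had a match, a difference of -1.42 points (-3.73 to 0.872). For GGGCGG the difference was -0.165 points (-1.36 to 1.00). For 1 of the 9 motifs, CAAAGTCC, the interval of the difference left out 0, with 1.89% of depleted-specific and 1.06% of control-specific members, 0.826 points apart (0.0242 to 1.63). This is 39 against 19 members, and 9 motifs were compared.

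Common members differed more from control-specific members. AGGTCA was in 21.4% of common and 16.6% of control-specific members, 4.80 points higher (1.63 to 8.06). GGGCGG was higher by 3.70 points (1.87 to 5.71), TGANTCA by 3.05 (0.663 to 5.58), TGTTTAC by 1.97 (0.274 to 3.84) and CAAAGTCC by 1.96 (0.791 to 3.34). Common members also had higher scores than specific ones, and the part of score in these differences was not tested. The 9 motifs were also compared between the arms, and for 3 of them the interval of the difference left out 0. GTTAATNAT was in 12 of 3219 short-arm (0.373%, 0.193 to 0.650) and 22 of 1565 long-arm members (1.41%, 0.883 to 2.12). GGGCGG was in 3.36% of short-arm and 5.50% of long-arm members, 2.14 points apart (0.866 to 3.52), and CAAAGTCC differed by 0.937 points (0.0841 to 1.91) in the same direction. CCAAT was in 26.8% and 24.2%, a difference of -2.59 points (-5.22 to 0.0854).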

How the data were processed

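FAIRE-seq was performed once in control and once in NR2E3-depleted HepG2 cells, with samples grouped by treatment per the labels. Per the labels and the methods, the authors used Trimmomatic 0.39 for trimming and Bowtie2 2.4.5 for alignment to hg38, and called and annotated peaks with HOMER under a q-value threshold. The sources used here do not give the rule that separates common from specific peaks, nor any correction for input or copy number. Each deposited peak carries a score, which is the authors' scaled tag number. Scores under 10 were whole multiples (within 0.05 tags) of 0.407 in the common and control-specific lists and of 0.507 in the depleted-specific list, and tags are scores over that step. If both lists share a scale, the depleted library held 0.802 times the tags of the control library. The lists state no total depth.

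Members and gene lists were chosen with earlier results of these data known. Named were the 10 nearest genes with most members, the 5 with the largest excess in each direction, and listed gene groups. Sequences printed were from the highest-scoring peaks of a list in an arm, with those for 7 to 24 Mb added after values were seen, and some sequences and genes are not reported here. Every listed peak spans 300 bp. Shares carry exact Clopper-Pearson intervals, ratios exact binomial intervals and differences Newcombe intervals, all at 95%. Genes were located with GENCODE 44 and otherwise RefSeq positions on hg38. No test was run. Interval coverage and the motif search were checked on simulated data. Alternatives were another score minimum, a tag minimum for specific members, merged or shared neighbours within 1000 bp, a TSS distance of 3000 bp, bins left out and other bin sizes. Leaving out 7 to 24 Mb, or 34 Mb to the undetermined run, was chosen after seeing the data. Calculations used scipy 1.17.1, pandas 2.3.3 and numpy 2.4.6 under Python 3.11.15, with matplotlib 3.10.9 for plots.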

Additional observations from a re-analysis of the deposited data

How the results depend on the processing

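No paired analysis was possible because only 1 library was made per treatment, and no replicate could be left out. The ratio of depleted-specific to control-specific members, 1.15, was 0.350 with at least 15 tags (direction turned), 1.88 with scores of at least 6 and 1.33 without 7 to 24 Mb. The cause of these changes was not tested. The common share, 19.4%, was 24.1% with scores of at least 6 and 22.3% without 7 to 24 Mb. The density of the long over the short arm, 0.421, turned to 1.44 without 7 to 24 Mb, and was 0.455 without specific peaks near one of the other library, 0.383 without 3 Mb on each side of the undetermined run and 0.447 without the densest bin. It was 0.453 when at least 15 tags were asked of specific members and all common members were kept. The depleted share on the long minus the short arm, 2.82 points, was -6.26 points without 7 to 24 Mb and -2.16 points without that stretch and 34 Mb to the run. The intergenic share, 44.4%, was 45.98% without the densest bin and 46.3% without 7 to 24 Mb. The share in the 10 densest bins, 41.4%, was 39.1% without near peaks and 43.1% without 3 Mb on each side of the run. It was 44.8% with that same cut of 15 tags on specific members only and 43.4% in the 20 densest bins of 0.5 Mb. The share of bins with more depleted-specific members, 68.8%, was 80.5% in 2 Mb and 88.9% in 5 Mb bins. For intergenic peaks only, the difference in motif share from other distal peaks was -1.81 points for TTGCNNAA, 1.04 for AGGTCA and 1.54 for CCAAT. Over the whole peak it was -0.720 points for GTTAATNAT. In these sets the interval for TTGCNNAA (-3.20 to -0.315) left out 0, as it did not over all members, and that for CAAAGTCC over the whole peak (-0.916 to 0.0654) included 0. The other 49 values stayed within the interval of the value reported (for the Spearman correlation, within 0.1). With a median of 12 to 14 tags per specific member, a single peak's absence from a list does not show that the site was closed.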

Other observations

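The other classes of peaks on chromosome 16 were distributed differently from the distal ones. Promoter-class peaks numbered 460, of which 246 were common, 64 control-specific and 150 depleted-specific, a ratio of 2.34 (1.74 to 3.19) against 1.15 for distal peaks. Common peaks were thus the largest list among promoters and the smallest among distal peaks. Of promoter-class peaks, 52.2% (47.5 to 56.8) lay on the short arm and 21.1% (17.4 to 25.1) between 7 and 24 Mb, while 56.4% of distal peaks lay there. Exonic peaks followed the distal ones, with 53.3% (42.5 to 63.9) of 90 in that stretch and a ratio of 1.25 (0.789 to 1.99). Peaks at transcription termination sites did so less closely, with 45.7% (35.4 to 56.3) of 94 there and a ratio of 1.03 (0.615 to 1.73).

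As a check of the labelled cell type, promoter-class peaks were looked up for 9 genes of hepatocytes on any chromosome, and 6 had one. These were HNF4A, FOXA1, FOXA2, APOA1, APOA2 and SERPINA1, each with a common promoter-class peak. ALB, TTR and AFP, which encode albumin, transthyretin and alpha-fetoprotein, had 0. No RNA was measured here, so this is no measure of their expression.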
